A study of Mus musculus with 6 samples.

Results

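The genes described here are 8 lysosomal cathepsins, Ctsa, Ctsb, Ctsc, Ctsd, Ctsh, Ctsl, Ctss and Ctsz, and legumain, Lgmn. They were chosen by symbol in the deposited expression table and are 9 of its 47643 genes. Each symbol matched 1 row. The table holds RNA-seq of sorted L-GMP of C57BL/6 mice, acute myeloid leukaemia cells named for the granulocyte-macrophage progenitor, from which granulocytes and monocytes arise. In 3 knockout (KO) libraries both Prkaa1 and Prkaa2 were labelled as knocked out, and 3 libraries were wild type (WT). Prkaa1 and Prkaa2 encode the alternative catalytic alpha subunits of AMPK, a kinase that senses low cellular energy. The labels give neither the leukaemia-driving oncogene, the Cre driver nor the age and number of mice, so the replicates may be technical and the p-values cover only the spread between these libraries. The comparison asked how RNA of each protease differed in KO relative to WT.

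Cathepsins are proteases of the lysosome, the acid compartment where cells break down proteins. They are made as inactive precursors, carried to the lysosome by mannose-6-phosphate receptors and other sorting proteins, and activated by cleavage there. Cathepsins B, C, H, L, S and Z are papain-like cysteine proteases, cathepsin D is an aspartic protease, cathepsin A is a serine carboxypeptidase, and legumain is a cysteine protease of another family that cuts after asparagine and trims several cathepsins. In myeloid cells, cathepsin C activates the serine proteases of granules, and cathepsins S and L help to process antigens for MHC class II molecules. Transcription of many lysosomal genes is driven by TFEB and its relatives, which bind E-boxes, sites with the core CACGTG.

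Promoters are shown because this core is the site that the TFEB family is known to bind. RefSeq windows of 250 bases before a gene start (build GRCm38.p6, the mm10 assembly) were found for 7 of the 9 genes, all but Ctsb and Ctsh, in 9 windows. The core CACGTG, which reads the same on both strands, was in 4 of the 9 windows, belonging to 4 genes, and in 6.02% of all 32851 windows of the same length. The longer TCACGTGA, which contains that core and is also its own reverse complement, was in 2 of the 9 windows and in 0.785% of all windows. The windows precede starts of RefSeq transcripts. Those of Ctsl, of the second Ctsa start and of the Lgmn start shown lie inside the GENCODE bounds of their genes, and that of Ctsd lies partly inside since those bounds reach further upstream. The sequences run 5′ to 3′ on the gene's strand, and capitals mark these motifs.
Ctsd window before the RefSeq start, chr7:142387828-142388077, minus strand: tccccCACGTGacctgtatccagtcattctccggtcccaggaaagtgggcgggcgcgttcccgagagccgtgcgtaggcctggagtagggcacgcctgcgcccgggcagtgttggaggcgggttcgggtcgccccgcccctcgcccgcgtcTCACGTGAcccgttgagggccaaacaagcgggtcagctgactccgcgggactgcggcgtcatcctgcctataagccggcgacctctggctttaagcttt
Ctsa window before its second RefSeq start, chr2:164833523-164833772, plus strand: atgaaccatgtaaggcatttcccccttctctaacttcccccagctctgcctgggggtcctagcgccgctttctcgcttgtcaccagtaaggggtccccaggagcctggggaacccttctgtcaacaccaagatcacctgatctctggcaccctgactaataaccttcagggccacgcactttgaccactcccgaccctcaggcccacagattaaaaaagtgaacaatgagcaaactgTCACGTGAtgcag
Ctsl window before the RefSeq start, chr13:64370521-64370770, minus strand: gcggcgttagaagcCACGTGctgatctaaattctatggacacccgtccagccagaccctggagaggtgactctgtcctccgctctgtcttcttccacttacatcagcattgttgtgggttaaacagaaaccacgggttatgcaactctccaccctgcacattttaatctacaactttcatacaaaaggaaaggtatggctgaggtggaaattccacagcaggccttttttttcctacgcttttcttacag
Lgmn window before one of its RefSeq starts, chr12:102439093-102439342, minus strand: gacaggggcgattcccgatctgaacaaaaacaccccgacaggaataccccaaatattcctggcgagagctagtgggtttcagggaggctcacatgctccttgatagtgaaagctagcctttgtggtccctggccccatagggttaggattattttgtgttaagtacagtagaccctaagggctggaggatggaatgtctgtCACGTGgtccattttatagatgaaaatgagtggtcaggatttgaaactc
TCACGTGA stood in the windows of Ctsd and Ctsa, with the first base of its CACGTG core 98 bases before the start in Ctsd and 12 bases before it in Ctsa. Ctsd held a further CACGTG 245 bases before its start, Ctsl held one at 236 bases and Lgmn one at 49 bases. No CACGTG was found in the windows of Ctsc, Ctss or Ctsz, nor in the other windows of Ctsa and Lgmn. A match is a description of letters, and binding was not measured here.

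Prkaa1 RNA was at 1.11, 0.735 and 0.548 FPKM (a read level scaled to gene length and a factor per library) in KO, against 2.01, 2.20 and 1.80 FPKM in WT (limma adjusted p = 0.00112). Prkaa2 was at 0, 0.0220 and 0.0194 FPKM in KO and 0, 0 and 0.0178 FPKM in WT, or 4 reads against 2, so its loss was not detectable at this depth. The labels do not say which exons were deleted, and reads outside them still count for Prkaa1. Reads recovered from the deposited values came to at least 12743202 to 14438220 per KO library and 11460763 to 16518563 per WT library. All 9 listed progenitor markers had reads in both genotypes. Of the 8 measured, 4 were higher in KO and 4 lower, and 3 and 5 after the rescaling described below. Of all tested genes 38% were higher and 40.4% lower, and 22.8% and 59.1% after rescaling. Cd34 was at 3.51 FPKM in KO and 27.8 FPKM in WT. Kit was at 1.43 and 0.250 FPKM, under the minimum mean of 1 FPKM over the 6 libraries, and was not tested. FPKM sums were larger in the KO libraries, at 649611 to 653819, against 463683 to 475654 in WT. For that reason the change of each protease is also given after rescaling every library to the same FPKM sum. Over all tested genes the median log2 change was -0.02 as deposited and -0.41 after rescaling. The FPKM sums and both medians depend on how the libraries were scaled.

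Of the 9 proteases, 6 were higher in KO (Ctsd, Ctsl, Ctsb, Ctsh, Ctsc and Lgmn), 1 was lower (Ctsa), and Ctsz and Ctss did not pass the test. A gene was called where the adjusted p of limma, a linear model on log2(FPKM + 1), was under 0.05. The background was high: of 9108 genes tested, 38% were called higher in KO and 40.4% lower, 78.4% in all. All 6 higher proteases had a log2 change of at least 1, which 12.8% of all tested genes also reached as higher calls. The median log2 change of the 9 was 1.41, beside -0.02 for all tested genes. That median is the value of Lgmn, and the values next to it in order were 1.24 for Ctsb and 1.46 for Ctsc. All 9 passed the minimum mean of 1 FPKM over the 6 libraries, Lgmn only through its KO values, so its inclusion favoured a rise. The same holds for any gene named below with a mean under 1 FPKM in one genotype: it was tested only because of the other. Since these are bulk libraries, more cells that express a protease and more RNA per cell cannot be told apart.

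Positions are given in mm10 from GENCODE M21. Beside Ctsd (ENSMUSG00000007891), Ctsh (ENSMUSG00000032359) and Ctsc (ENSMUSG00000030560), whose positions follow, the plus-strand genes are Ctsa (ENSMUSG00000017760, chromosome 2, 164832873 to 164841032, 13 exon blocks), Ctsb (ENSMUSG00000021939, chromosome 14, 63122462 to 63145923, 10 exon blocks) and Ctss (ENSMUSG00000038642, chromosome 3, 95526786 to 95556403, 8 exon blocks). The minus-strand genes are Ctsl (ENSMUSG00000021477, chromosome 13, 64359337 to 64370890, 10 exon blocks), Ctsz (ENSMUSG00000016256, chromosome 2, 174427493 to 174439039, 6 exon blocks) and Lgmn (ENSMUSG00000021190, chromosome 12, 102394084 to 102439813, 14 exon blocks). The values are levels of whole genes and do not tell exons or transcripts apart.

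**Figure D1:**
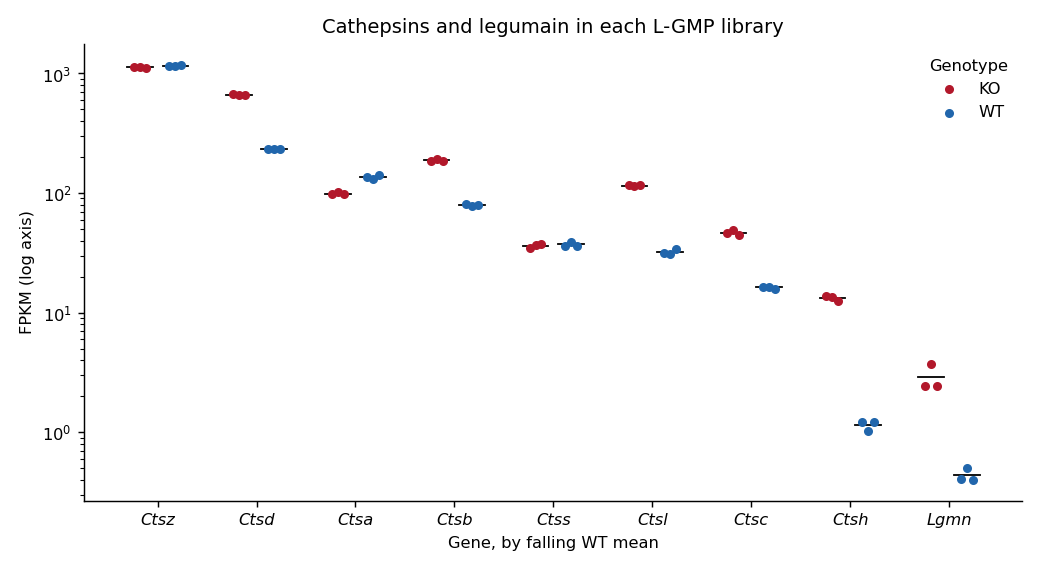
FPKM of the 9 proteases on a log axis, 3 KO libraries (red) and 3 WT libraries (blue) per gene, with the mean as a black line. KO and WT points are apart for every gene except Ctss, and nearly touch for Ctsz.

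Ctsd encodes cathepsin D, the main aspartic protease of the lysosome. Its level was 669, 657 and 663 FPKM in KO, against 234, 235 and 234 FPKM in WT. Every KO library was well above every WT library, and replicates lay within a few percent of each other. Ctsd rose 2.83-fold, with 663 ± 6.00 FPKM in KO and 234 ± 0.441 FPKM in WT (SD, n = 3 each; log2 fold change 1.50, SE 0.017, limma adjusted p = 1.63e-09). It lies on chromosome 7, 142375911 to 142388038, minus strand, with 9 exon blocks in the GENCODE M21 annotation. Of its exonic bases, 34.4% are shared with the same-strand gene Gm49369, which has no row in the table, so the Ctsd value is uncertain to that extent.

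Ctsl and Ctss encode cathepsins L and S, endopeptidases that cut inside protein chains. Ctsl was at 116, 114 and 116 FPKM in KO, against 31.6, 30.8 and 33.8 FPKM in WT. Ctss was at 34.6, 36.5 and 37.8 FPKM in KO, against 36.3, 39.2 and 36.2 FPKM in WT. The Ctsl groups were far apart, whereas the Ctss groups overlapped. Ctsl rose 3.59-fold (115 ± 1.25 FPKM in KO and 32.1 ± 1.55 FPKM in WT, SD, n = 3 each; log2 fold change 1.82, SE 0.039, limma adjusted p = 2.45e-08). For Ctss the log2 fold change was -0.04 with a 95% interval of -0.15 to 0.08 (limma adjusted p = 0.520), or 0.901 to 1.06 as a ratio on the FPKM + 1 scale. The ratio of Ctsl to Ctss, which no rescaling of a library can move, was 3.36, 3.12 and 3.07 in KO and 0.870, 0.786 and 0.935 in WT. In FPKM, Ctss was thus the more abundant of the pair in each WT library and Ctsl in each KO library (exact two-sided permutation p = 0.1, the smallest that 3 against 3 libraries can give). Of the exonic bases of Ctsl in the annotation, 26.8% are shared with Gm47123 and Gm49230, which have no rows in the table, and its values fit a length of 1971 bases rather than the 6489 of that annotation. Which of the pair is the more abundant depends on that length. By recovered reads Ctsl was above Ctss in each WT library too, at 792, 1099 and 940 against 627, 963 and 693 reads.

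Ctsb, Ctsh, Ctsc and Ctsz encode cathepsins B, H, C and Z, which remove residues from the ends of proteins, cathepsin B being an endopeptidase as well. Ctsb was at 187, 191 and 187 FPKM in KO, against 80.4, 77.8 and 79.4 FPKM in WT. It rose 2.38-fold (log2 fold change 1.24, SE 0.025, limma adjusted p = 1.86e-08). The groups were well apart, and the overlap of its exons with Fdft1 on the opposite strand is 12.8% of its bases. Fdft1 itself was at 49.0, 55.9 and 52.8 FPKM in KO and 53.3, 54.6 and 53.3 FPKM in WT.

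Ctsh had the largest change among the 9, on the log2 scale and as a ratio of means. It was at 13.7, 13.6 and 12.6 FPKM in KO, against 1.22, 1.03 and 1.21 FPKM in WT. All WT libraries sat close to 1 FPKM, from 70, 84 and 77 reads, while the KO libraries had 786, 695 and 732 reads. The ratio of means was 11.5 (log2 fold change 2.73, SE 0.071, limma adjusted p = 5.29e-08), and the added 1 makes the log2 value smaller than the ratio would give. Ctsh lies on chromosome 9, 90054152 to 90076089, plus strand, and shares no exonic base with another annotated gene.

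Ctsc, the activator of granule serine proteases, was at 46.0, 48.6 and 44.5 FPKM in KO, against 16.5, 16.4 and 15.8 FPKM in WT. It rose 2.86-fold (log2 fold change 1.46, SE 0.045, limma adjusted p = 1.11e-07), with no overlap between groups and no exonic base shared with another gene. Ctsc and Ctsd are both on chromosome 7, Ctsc at 88278085 to 88310888 on the plus strand, far from Ctsd.

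Ctsz was the most abundant of the 9 in both genotypes and was almost level between them. It was at 1140.2, 1131 and 1119 FPKM in KO, against 1154, 1145 and 1183 FPKM in WT. Each KO library lay below each WT library, by a margin no wider than the spread among the WT libraries. The log2 fold change was -0.04, with a 95% interval of -0.08 to 0.00 (limma adjusted p = 0.0810), whose lower end is a ratio of 0.946 on the FPKM + 1 scale. Ctsz passed the threshold as lower under quantile normalization, cyclic loess, rescaling and a fit on recovered reads, with log2 changes of -0.18, -0.13, -0.51 and -0.04.

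Lgmn encodes legumain, which converts single-chain cathepsins to forms of 2 chains. It was the least abundant, at 2.42, 3.74 and 2.43 FPKM in KO, against 0.406, 0.500 and 0.397 FPKM in WT. These values rest on 72, 99 and 73 reads in KO and 12, 21 and 13 reads in WT. The groups did not overlap, but KO replicate 2 stood above the other KO libraries. Lgmn rose (ratio of means 6.59, log2 fold change 1.41, SE 0.14, limma adjusted p = 5.34e-05), and without KO replicate 2 its log2 fold change was 1.26.

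Ctsa encodes cathepsin A, the carboxypeptidase that also shields beta-galactosidase and neuraminidase 1 in a complex. It was at 97.8, 101 and 98.3 FPKM in KO, against 135, 132 and 141 FPKM in WT. It was the single protease of the set called lower, with 99.0 ± 1.76 FPKM in KO and 136 ± 4.32 FPKM in WT (SD, n = 3 each), a ratio of 0.728 (log2 fold change -0.45, SE 0.031, limma adjusted p = 6.73e-06). Its exons share 17.4% of their bases with Neurl2 and Pltp on the opposite strand. Pltp was listed at 0 in all libraries, and Neurl2 was at 1.54, 2.16 and 0.686 FPKM in KO and 4.97, 5.18 and 5.45 FPKM in WT.

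With libraries rescaled to equal sums, the same 6 proteases were called higher and 3 were called lower, Ctsa, Ctsz and Ctss, where 22.8% of all genes were higher and 59.1% lower. Relative to the rescaled median of all genes, the log2 changes were 2.79 for Ctsh, 1.76 for Ctsl, 1.58 for Lgmn, 1.44 for Ctsd, 1.42 for Ctsc and 1.18 for Ctsb. On the same measure Ctss was at -0.08, Ctsz at -0.10 and Ctsa at -0.51. The directions of the 7 called proteases were thus the same under both scalings, while Ctsz and Ctss changed by about as much as the median gene. Of the 9, 8 had KO values wholly above or below the WT values, which 80.6% of all tested genes had. KO values were wholly above in 6 of them (39.1% of all tested genes) and wholly below in Ctsa and Ctsz (41.6% of all tested genes).

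**Figure D2:**
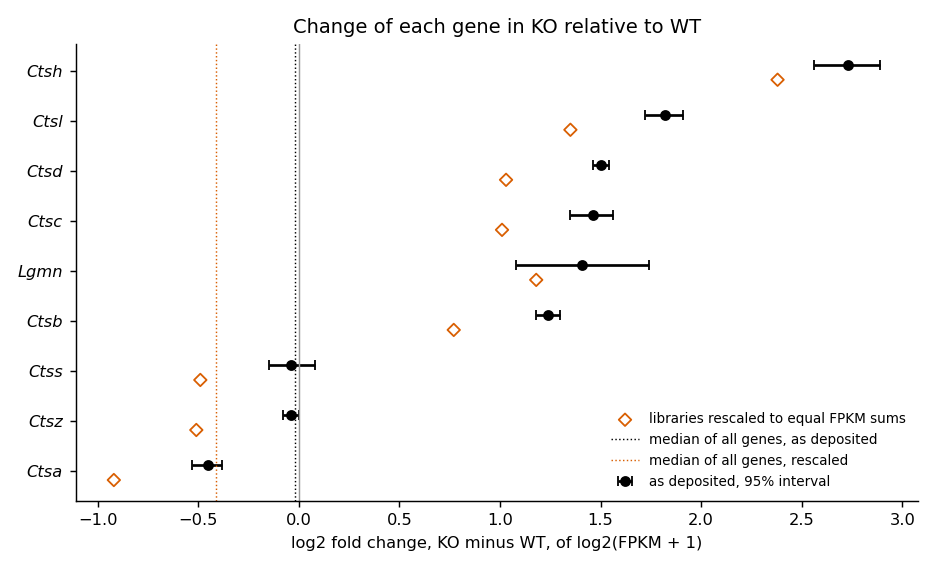
Log2 fold change of each protease, KO minus WT, on log2(FPKM + 1): black points with 95% intervals as deposited, open diamonds after rescaling libraries to equal FPKM sums, dotted lines at the median of all genes under each scaling (-0.02 and -0.41). Ctsh is farthest to the right at 2.73, 5 further proteases are at 1.24 to 1.82, and Ctss and Ctsz are at -0.04 as deposited and near the rescaled median after rescaling.

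The order of abundance, compared per length, changed accordingly. In KO it was Ctsz, Ctsd, Ctsb, Ctsl, Ctsa, Ctsc, Ctss, Ctsh and Lgmn, at means of 1130.0, 663, 188, 115, 99.0, 46.4, 36.3, 13.3 and 2.86 FPKM. In WT it was Ctsz, Ctsd, Ctsa, Ctsb, Ctss, Ctsl, Ctsc, Ctsh and Lgmn, at means of 1161, 234, 136, 79.2, 37.2, 32.1, 16.2, 1.16 and 0.434 FPKM. Within each genotype no pair of neighbours in the order overlapped between replicates. The order also rests on the lengths behind the values, which differ from GENCODE M21 for Ctsb, Ctsd and Ctsl. The difference is largest for Ctsl, at 1971 bases against 6489, so its rank is uncertain. Ctsa and Ctss stood lower in the KO order than in the WT order, and Ctsb, Ctsl and Ctsc stood higher.

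The summed level of the 9 proteases was 2307, 2296 and 2280.2 FPKM in KO, against 1689, 1678 and 1724 FPKM in WT. As a percentage of all FPKM in the library it was 0.355, 0.351 and 0.351% in KO, against 0.364, 0.356 and 0.363% in WT. The sum was therefore higher in KO as deposited, by a ratio of 1.35, but not as a share of the library, where the ratio was 0.976. Without Ctsz, the sum was 1166, 1166 and 1161 FPKM in KO and 535, 533 and 541 FPKM in WT.

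Shares of that sum are free of library scaling. Ctsz made up 49.2 ± 0.18% of it in KO and 68.4 ± 0.19% in WT (SD, n = 3 each). Ctsd made up 28.9 ± 0.25% in KO and 13.8 ± 0.21% in WT. The share of Ctsd in KO was thus larger by 15.1 percentage points and that of Ctsz smaller by 19.1 (a difference of -19.1). Ctsb had 8.21% in KO and 4.67% in WT, Ctsl 5.03 and 1.89%, and Ctsa 4.32 and 8.01%. Taken over recovered reads in place of FPKM, which weights long genes more, the KO minus WT difference kept its direction for all 9, but was -9.49 points for Ctsa (-3.69 by FPKM), 6.19 for Ctsb (3.54), 2.41 for Ctsc (1.07) and 0.983 for Ctsh (0.510). For each of the 9 shares the KO and WT libraries did not overlap (exact two-sided permutation p = 0.1 and Benjamini-Hochberg adjusted p = 0.1 over the 9, the smallest this design can give).

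**Figure D3:**
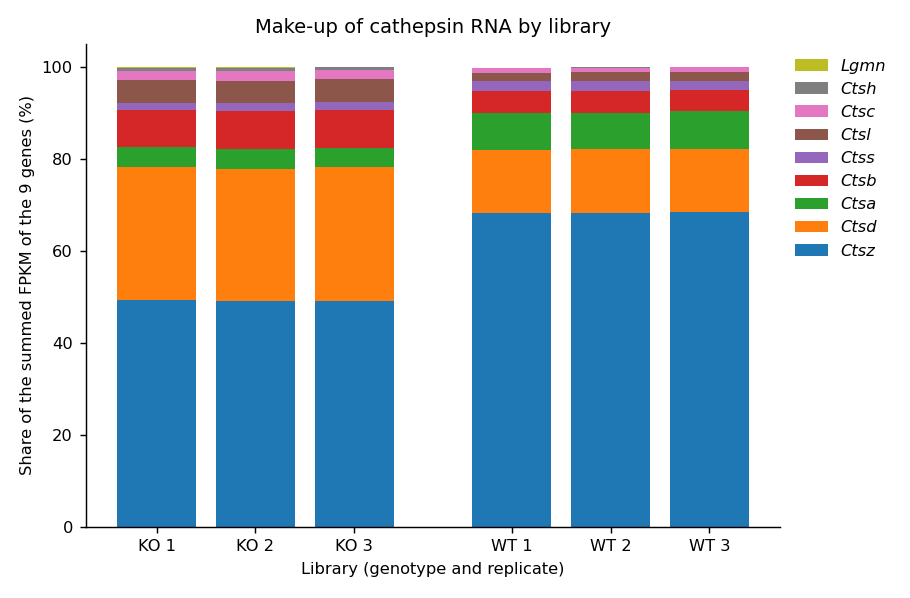
Stacked bars of the share (%) of each protease in the summed FPKM of the 9, for 3 KO libraries on the left and 3 WT libraries on the right. Ctsz (bottom) takes 49.1 to 49.4% in KO and 68.2 to 68.6% in WT, and Ctsd (above it) 28.6 to 29.1% in KO and 13.6 to 14.0% in WT.

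For the lists that follow, 38% of all tested genes were higher and 40.4% lower as deposited, and 22.8% and 59.1% after rescaling. Every gene named below as called had the same call after rescaling except Ctsg, Neu1, Scpep1 and Prcp.

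The rest of the cathepsin family was mostly silent. Of 16 further cathepsins and napsin listed, 11 had no read in any KO library and 12 none in any WT library, Ctsk, Ctsf and Ctsw among both. The measured ones were Ctsg, Ctso and Napsa. Ctsg, the granule serine protease cathepsin G, was at 6362 ± 45.9 FPKM in KO and 5423 ± 84.9 FPKM in WT (limma adjusted p = 4.55e-06), a direction that turned with rescaling (-0.24 on the log2 scale), quantile normalization and cyclic loess. Napsa, the aspartic protease napsin A, rose 3.23-fold (187 FPKM in KO and 57.8 FPKM in WT, limma adjusted p = 2.73e-08). Ctso fell to 0.348 FPKM in KO, against 2.13 FPKM in WT (limma adjusted p = 8.87e-06), and was tested only through its WT values.

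Of 4 genes whose proteins work beside the cathepsins, Psap, Grn and Glb1 were higher in KO under both scalings. Psap encodes prosaposin, which binds the cathepsin D precursor, and was at 410, 416 and 417 FPKM in KO, against 65.0, 60.5 and 62.9 FPKM in WT, a 6.59-fold rise (limma adjusted p = 1.63e-09). Grn, progranulin, which prosaposin helps to carry to lysosomes, rose 3.83-fold (190.3 FPKM in KO and 49.7 FPKM in WT). Glb1 and Neu1, the beta-galactosidase and neuraminidase of the cathepsin A complex, rose 1.95-fold and 1.36-fold (limma adjusted p = 6.30e-07 and 1.45e-05), while Ctsa itself fell. The rise of Neu1 was not kept with rescaling (log2 change -0.02). All 4 were called higher as deposited and 3 after rescaling, with a deposited median log2 change of 1.43 beside -0.02 for all genes.

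The known substrates of cathepsin C did not all move with Ctsc: of 11 listed, 4 were measured, 3 higher (Ctsg among them) and 1 lower as deposited, and 2 and 2 after rescaling. Elane and Prtn3, neutrophil elastase and proteinase 3, rose 4.51-fold and 4.35-fold, to 7923 and 2056 FPKM in KO against 1758 and 472 FPKM in WT (limma adjusted p = 1.63e-09 and 1.17e-09). Prss57, a granule serine protease of the same kind, was at 14.8 FPKM in KO and 76.7 FPKM in WT (limma adjusted p = 2.82e-08). The granzymes Gzma, Gzmb and Gzmc and the mast cell proteases Cma1, Mcpt4 and Tpsb2 had no read in either genotype.

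Inhibitors of cysteine proteases went in opposite directions. Of 13 listed, 8 were measured, 3 of them higher, 4 lower and 1 not passing, and 3 higher and 5 lower after rescaling. Stfa1, a stefin, was at 3.18, 1.89 and 2.22 FPKM in KO, against 263, 263 and 238 FPKM in WT. BC100530, a further stefin, fell to 1.83 FPKM in KO, against 25.0 FPKM in WT. Gm5483 had no read in KO and 139 in WT, at least 38.3-fold lower against 3 reads over the KO group. These stefins are near-identical copies, so reads may be split among them. Ctla2a, which resembles a cathepsin propeptide and inhibits cathepsin L, was at 12.3 FPKM in KO and 0.429 FPKM in WT (27 WT reads), also with a close copy, Ctla2b.

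The 4 other measured inhibitors were named after their values were seen. Cst3, cystatin C, a secreted inhibitor, rose 3.01-fold (1042 ± 21.6 FPKM in KO and 346 ± 9.89 FPKM in WT, limma adjusted p = 8.42e-09). Cst7, cystatin F, an inhibitor that acts on cathepsin C inside cells, fell to 40.3 FPKM in KO, against 195 FPKM in WT. Cstb, cystatin B of the cytosol, was at 289.6 FPKM in KO and 297 FPKM in WT and did not pass, except as lower after rescaling. Ctla2b had 90 reads in KO and none in WT, at least 36.3-fold higher. Summed over the list, inhibitors were at 1374, 1380.1 and 1416 FPKM in KO and 1137, 1139.5 and 1110.5 FPKM in WT. The 7 cysteine proteases summed to 1.12, 1.11 and 1.07 times the inhibitors in KO and to 1.16, 1.15 and 1.22 times in WT. Without Ctsz those ratios were 0.291, 0.295 and 0.282 in KO and 0.147, 0.145 and 0.150 in WT (exact two-sided permutation p = 0.1 for each ratio). The ratio was thus lower in KO with Ctsz and higher without it. Leaving out Ctsz, which was abundant and almost level, was not a planned result.

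Genes that carry cathepsins to the lysosome were mixed: of 13 listed, 12 were measured, 5 higher, 3 lower and 4 not passing. Gnptg, a subunit of the enzyme that starts the mannose-6-phosphate tag, rose 3.10-fold, and Nagpa, which completes the tag, was at 31.1 FPKM in KO and 95.3 FPKM in WT. Sort1, sortilin, a sorting receptor, rose 2.68-fold, and Scarb2, a lysosomal membrane protein, 1.60-fold. The smallest of these changes had a limma adjusted p of 6.84e-05. The count depended on scaling, with 3 higher and 7 lower after rescaling. Of the mannose-6-phosphate receptors, M6pr was at 39.6 FPKM in KO and 40.5 FPKM in WT and did not pass, except as lower after rescaling. Igf2r had 3 reads in KO and 217 in WT, and was under the minimum mean and not tested. Both receptors were named after their values were seen.

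Counts of other lysosomal genes depended on the scaling. Of 21 measured hydrolases that are not proteases, 14 were higher and 5 lower as deposited (median log2 change 0.59), and 10 and 10 after rescaling. Fuca1, the lysosomal fucosidase, which trims sugar chains, rose 3.22-fold (218 FPKM in KO and 67.6 FPKM in WT, limma adjusted p = 1.17e-08). Of 9 measured membrane proteins, 6 were higher and 2 lower (median 0.83), and 6 and 3 after rescaling. Mcoln1, a lysosomal calcium channel, rose 3.22-fold, Lamp2 3.24-fold and Cd63 1.90-fold, while Cd68, a marker of macrophage lysosomes, fell to 50.1 FPKM in KO against 94.7 FPKM in WT. Other lysosomal peptidases changed less: Scpep1 rose 1.35-fold and Prcp 1.30-fold, both not kept with rescaling (log2 changes -0.03 and -0.07). Tpp1 was at 41.9 FPKM in KO and 49.8 FPKM in WT, and Cpq at 4.38 FPKM in KO and 9.07 FPKM in WT, both called lower. Dpp7 was close to the threshold and its call depended on the setting (limma adjusted p = 0.0529). It passed as higher with quantile normalization (0.0109), cyclic loess (0.00349), recovered reads (0.0447), a minimum mean of 5 FPKM (0.0489) and without WT replicate 2 (0.0155), and as lower after rescaling (4.69e-04).

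Among the TFEB family, Tfe3 rose 3.62-fold (4.11, 4.31 and 4.01 FPKM in KO, against 1.22, 1.15 and 1.06 FPKM in WT, limma adjusted p = 2.61e-06). Tfec, a relative found in myeloid cells, fell to 4.36 FPKM in KO, against 8.34 FPKM in WT (limma adjusted p = 1.98e-05). Mitf had 21 reads in KO and none in WT. Tfeb was at 0.938, 1.36 and 0.954 FPKM in KO and 0.416, 0.283 and 0.363 FPKM in WT, under the minimum mean and not tested. RNA level says nothing of the activity of these factors.

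Genes of MHC class II processing, in which cathepsins S and L take part, were also split, with 3 of 6 measured members higher and 3 lower. Cd74, the invariant chain that these cathepsins degrade, was at 59.8, 61.0 and 55.3 FPKM in KO, against 1.67, 1.25 and 1.26 FPKM in WT, from 3068 and 87 reads. Ifi30, a lysosomal thiol reductase, rose 2.11-fold. H2-DMb1, a subunit of the peptide exchange factor, was at 10.9 FPKM in KO and 95.6 FPKM in WT, and H2-Eb1 had no read in KO and 70 in WT, at least 19.3-fold lower.

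**Figure D4:**
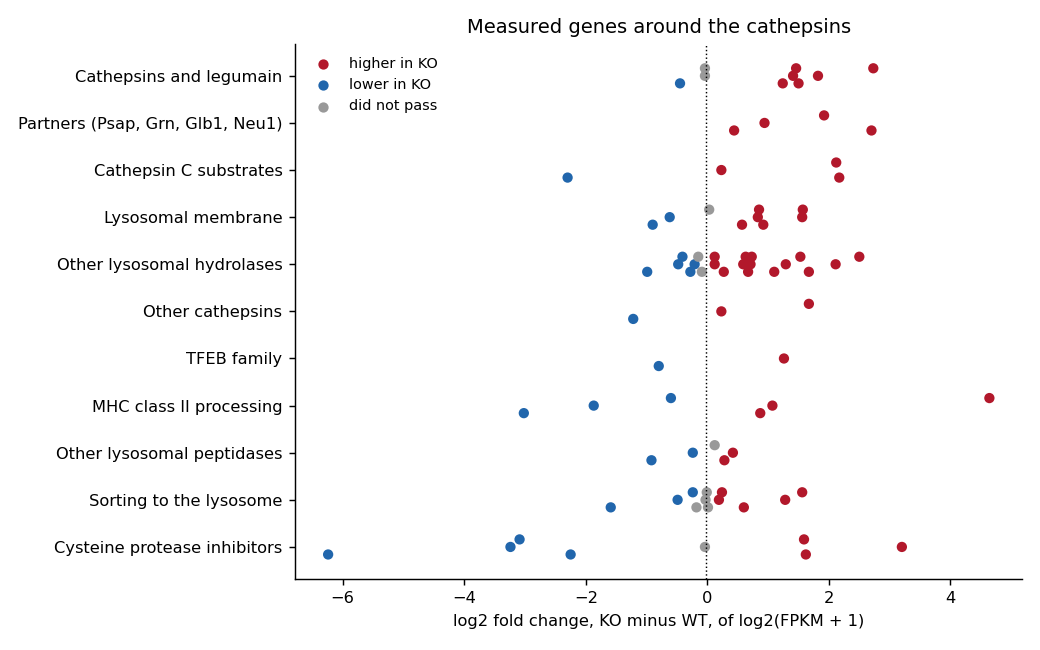
Log2 fold change, KO minus WT, of every measured gene in the protease set (top row) and in 10 lists around it, red for higher in KO, blue for lower and grey for not passing, with a dotted line at the median of all genes (-0.02). The 4 partner genes are all to the right as deposited, of which Neu1 is at -0.02 after rescaling, while the inhibitors spread from -6.24 to 3.20.

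The genes with the nearest profiles were found by Euclidean distance between log2(FPKM + 1) values over the 6 libraries, each gene centred on its own mean. Nearest to Ctsd were Card19 (distance 0.0207), Plpp6 (0.0542) and Rab2a (0.0555). Nearest to Ctsl were Klf6 (0.0323), 0610011F06Rik (0.0548) and Dgat1 (0.0751), and to Ctsb the MHC class I gene H2-K1 (0.0383), Anapc7 (0.0635) and Rhot2 (0.0656). Psap was among the 3 genes nearest to Ctsh (0.114), with Cebpb (0.106) and Nov (0.112). Nearest to Ctsa were Rpl13 (0.0307), Rps3a1 (0.0353) and Mcm5 (0.0440), with log2 changes of -0.46, -0.44 and -0.46. For Ctsz they were Glrx5 (0.0252), Capg (0.0322) and Gm26917 (0.0379), and for Ctss Ptbp3 (0.0602), Tarbp2 (0.0720) and Actr1b (0.0744). For Ctsc they were Scp2 (0.0920), Dcun1d4 (0.0981) and Ppp1r9b (0.101). The neighbours of Lgmn were the most distant, Snord118 (0.192), Upf1 (0.202) and Cml1 (0.213).

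Markers of other cells moved with these changes. Summed over 10 neutrophil markers the level was 71422 to 72818 FPKM in KO, against 317 to 332 FPKM in WT. Most of it was S100a8 (52072 FPKM in KO and 205 FPKM in WT) and S100a9 (14559.7 and 67.7 FPKM). All 7 measured were higher, 6 of them after rescaling and Ltf measured only through KO. Mmp9 was at 0 in KO and Retnlg in WT. Over 12 markers of basophils, mast cells and eosinophils it was 581 to 611 FPKM in KO and 32.9 to 39.0 FPKM in WT, with 9 of 9 measured higher, of which Prg2, Prg3, Epx, Prss34 and Fcer1a were measured only through KO, Cma1 and Tpsb2 at 0 in both genotypes, and Prg3, Epx, Prss34 and Fcer1a at 0 in WT. Over 10 erythroid markers it was 79.2 to 83.6 FPKM in KO and 12.3 to 15.1 FPKM in WT, with 6 of 6 measured higher, of which Gata1, Klf1 and Car2 were measured only through KO, Alas2 at 0 in KO and Gata1, Epor and Car1 among those at 0 in WT. Their part in the protease changes was not tested.

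Macrophages are rich in cathepsins, so their markers were read as well. Summed over 12 markers of monocytes and macrophages the level was 117 to 127 FPKM in KO and 384 to 399 FPKM in WT, most of it Ly6c2. Of the 3 measured, Adgre1 was higher (10.3 FPKM in KO and 3.34 FPKM in WT), and Ly6c2 and F13a1 were lower. C1qa, C1qc and Mrc1 had no read in either genotype, and the macrophage growth factor receptor Csf1r had 32 reads in KO and 1 in WT. Dendritic markers summed to 0 to 0.0622 FPKM in KO and 1.62 to 1.87 FPKM in WT, with Cd209a at 0 in both. Most of the WT sum was Flt3 (1.48 FPKM), which had no read in KO. B cell markers summed to 56.0 to 58.2 FPKM in KO and 83.6 to 91.2 FPKM in WT with Pax5 at 0 in both. The 2 measured went opposite ways, Ighm higher (54.4 FPKM in KO and 33.7 FPKM in WT) and Cd79b lower (2.48 and 54.6 FPKM). T cell markers summed to 0.709 to 1.23 FPKM in KO and 2.12 to 2.26 FPKM in WT, and stromal and endothelial markers to 0.528 to 0.926 and 2.80 to 3.56 FPKM. Most of the WT sum was Lck for T cells (2.15 FPKM) and Pecam1 for stromal and endothelial markers (2.38 FPKM). Cd3d went the other way, with 17 reads in KO and 1 in WT. All 6 natural killer markers were at 0 throughout. The part of these markers in the protease changes was not tested.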

How the data were processed

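RNA was measured in 3 KO and 3 WT libraries made by Smart-seq2 and Nextera XT, per the labels' protocols. Per the submitters' processing notes, the tools were CASAVA, bcl2fastq, STAR 2.5.3a (a read aligner) and DESeq2 1.18.1, and the build was mm10. The authors deposited FPKM values, which scale reads by gene length and a factor per library, so long and short genes can be compared. That factor did not follow the recovered reads. FPKM times bases per read was 78.1717 in KO replicate 1, with 14274673 reads, and 78.678 in WT replicate 1, with 11460763 reads. How the factor was set is not given in the sources used here, and its part in the all-gene median of -0.02 was not tested. How reads were counted, with or without strand or multimapping reads, is not given in the sources used here, so genes with shared exons are uncertain. Smart-seq2 does not mark strand, so reads of overlapping opposite-strand genes cannot be told apart, and its amplified reads are not independent molecules.

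A gene was tested where its mean over the 6 libraries reached 1 FPKM. The test was a linear model of genotype with a mean-variance trend, fitted to log2(FPKM + 1) by limma 3.58.1 (R 4.3.3). The test was two-sided with Benjamini-Hochberg adjustment over 9108 genes at 0.05. Reads were recovered by dividing FPKM by the library's smallest step: 16482 genes gave whole reads (tolerance 0.001 reads, or a millionth of a larger number) at their GENCODE M21 exonic length and 4649 at another length found by search, with the smallest number of reads that the values allow. These include Ctsb, Ctsd and Ctsl. Floors and reads cover counting error only. Replicates of a genotype differed by more than sampling noise (chi-square of 2.87 to 3.47 per gene and pair). Python 3.11.15, pandas 2.3.3 and matplotlib 3.10.9 made tables and figures.

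The proteases and gene lists were chosen with earlier results of these data known. By rule the text named all 9 proteases, from each list all measured members up to 5 or otherwise the 4 called with the largest change, and the 3 nearest profiles. Some genes that the rule names are not reported here. Alternatives were another pseudocount, other minimum means, other scalings, recovered reads in limma-voom, no variance trend, a replicate block, leaving out each library and, for shares, recovered reads in place of FPKM.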

Additional observations from a re-analysis of the deposited data

How the results depend on the processing

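The calls of Ctsb, Ctsc, Ctsd, Ctsh, Ctsl and Ctsa kept their direction and side of the threshold under all 15 alternatives, and that of Lgmn under the 14 that could test it, since its mean is under 5 FPKM. Log2 changes ranged from 2.38 to 3.53 for Ctsh, 1.35 to 1.90 for Ctsl, 1.03 to 1.50 for Ctsd, 1.01 to 1.56 for Ctsc, 0.77 to 1.30 for Ctsb, 1.18 to 2.63 for Lgmn and -0.92 to -0.39 for Ctsa. Ctss ranged from -0.49 to 0.06, passing only with rescaling. Proteases called lower numbered 3 with rescaling and 2 with quantile normalization, cyclic loess or recovered reads, where Ctsz passed. Rescaling by construction scales KO values down relative to WT values, since FPKM sums were larger in KO. It moved the median log2 change of all tested genes from -0.02 to -0.41. The cause of the Ctsz calls under the other settings was not tested. Genes called higher and lower numbered 2072 and 2383 at a minimum mean of 5 FPKM, where fewer genes were tested. Without a filter 5769 were lower, with more genes tested, and 2074 were higher with rescaling. Directions turned for Ctsg with rescaling (-0.24), quantile normalization (-1.17) and cyclic loess (-0.02), and with rescaling for Dpp7 (-0.33), Neu1 (-0.02), Prcp (-0.07) and Scpep1 (-0.03). The cause of the turns of Ctsg under quantile normalization and cyclic loess was not tested. Leaving out any library left 6 proteases higher and 1 lower. Same-numbered KO and WT libraries did not deviate together (correlations of 0.01, -0.01 and -0.02). These correlations cannot show whether such libraries were prepared as pairs. A replicate block gave 3420 genes higher and 3620 lower, with 6 proteases higher and 1 lower. Depth limits genes with few reads in a genotype, such as Lgmn with 46 WT reads.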
